A study of Homo sapiens with 45 samples.

Results

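The genes described here are the expressed members of the ZNF series of human zinc finger genes: those whose symbol is ZNF followed by a number and at most 1 letter, and whose mean level was 5 TPM (transcripts scaled to a fixed total in each library, after division by gene length) or more in both of 2 groups of untreated leukaemia cells, the Jurkat and the CCRF-CEM libraries that received solvent for 6 h. Of 534 genes with such a symbol, among 38557 genes in the tables, 267 reached that level in Jurkat and 308 in CCRF-CEM, and 245 reached it in both. The genes were chosen by their levels in those 6 libraries, which are given as a description only. Just inside the threshold in Jurkat stood ZNF681 at 5.14, ZNF814 at 5.22 and ZNF500 at 5.37 TPM, and just outside it ZNF768 at 4.80, ZNF788P at 4.76 and ZNF439 at 4.71 TPM. In CCRF-CEM the nearest inside were ZNF500 at 5.07, ZNF720 at 5.30 and ZNF543 at 5.42 TPM, and the nearest outside were ZNF611 at 4.94, ZNF529 at 4.91 and ZNF18 at 4.80 TPM.

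Most ZNF genes encode proteins that read DNA through arrays of C2H2 zinc fingers, small folds held by a zinc ion that each contact a few bases. Many also carry a KRAB box, which recruits the corepressor TRIM28 and through it the histone methyltransferase SETDB1, and these KRAB zinc finger genes lie largely in clusters, most of them on chromosome 19, where they are known as silencers of transposable elements. Others carry a SCAN domain, through which such proteins pair, or have no accessory domain and work as activators, in RNA binding or on the ribosome.

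The study removed or blocked the canonical BAF (SWI/SNF) chromatin remodelling complex in 4 lines of T-cell acute lymphoblastic leukaemia and sequenced RNA from 45 libraries in 15 groups of 3. SMARCA4 and SMARCA2 are the alternative ATPases of the complex, ARID1A and ARID1B its alternative DNA-binding subunits, and BRM014 is an inhibitor of both ATPases. Cas9-expressing Jurkat cells received lentiviral guide RNAs labelled gARID1A, gARID1A_1B, gSMARCA4, gSMARCA4_A2 or, as the control, gAAVS1, with 4 days of puromycin, and RNA was taken on day 10; gARID1A_1B is read here as guides to ARID1A with ARID1B, and gSMARCA4_A2 as guides to SMARCA4 with SMARCA2. Jurkat cells were also given 1 uM BRM014 or 0.01% DMSO for 6 h or 8 d, and the KOPT-K1, TALL-1 and CCRF-CEM lines the same for 6 h.

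The labels call each library a biological replicate and do not say whether the 3 of a group were separate cultures, so the p-values below measure the spread between these libraries. In bulk RNA, fewer cells of a kind and less RNA per cell cannot be told apart. SMARCA4 was 42.3 to 45.3 TPM in the libraries labelled gSMARCA4 and 47.5 to 52.2 in those labelled gSMARCA4_A2, against 95.5 to 100.2 in gAAVS1, and ARID1B was 10.9 to 12.9 in gARID1A_1B against 22.2 to 23.2. SMARCA2 was not lower in the libraries labelled gSMARCA4_A2 (22.1 to 22.6 TPM against 20.8 to 22.7), nor ARID1A in those labelled gARID1A_1B (95.9 to 105.9 against 93.8 to 95.1), and ARID1A was 79.2 to 85.0 in gARID1A. Markers of T cells summed to 1400 to 4035 TPM in every group, against 3.29 to 151 for B cells, 3.4 to 14.2 for myeloid, 0 to 7.98 for erythroid and 0 to 9.85 for epithelial and fibroblast markers. The Jurkat libraries, made with another extraction and a kit that does not keep strand, held 29.7 to 47.9 M counted reads and 20.0 to 24.9% of TPM in 13 mitochondrial mRNAs; the others, made with a directional kit, held 19.7 to 27.0 M and 4.99 to 8.04%.

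Of the 245 genes, 241 are annotated as protein coding and 4 as transcribed pseudogenes. Among the 242 with a protein sequence, 138 had a KRAB box, 104 had none found and 15 had a SCAN domain, 8 of them beside a KRAB box. The median number of C2H2 fingers was 9, with 11 in genes with a KRAB box, 7 in those without, and a maximum of 31; in 4 proteins no finger was found. Chromosome 19 held 100 of the genes, 79 of them with a KRAB box, followed by chromosome 7 with 22, chromosome 16 with 19 and chromosome 1 with 16. Reads can be shared in 2 ways: 64 genes overlap a gene on the other strand, which the Jurkat libraries cannot separate, and 32 encode a protein at least 80% identical to that of another ZNF gene, closest for ZNF587 and ZNF417 (98.1%), ZNF799 and ZNF443 (93.0%) and ZNF33A and ZNF33B (92.0%).

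A set of 6 genes changed the same way in all 9 comparisons with a control described below, ZNF341, ZNF45, ZNF32 and ZNF561 upward and ZNF496 and ZNF22 downward, and their promoters are shown because they start the transcripts that the results turn on. Each runs from 250 bases before the annotated start to 50 after it (RefSeq, GRCh38.p14), at chr20:33731746-33732045 on the plus strand for ZNF341, chr19:43935233-43935532 minus for ZNF45, chr10:43648832-43649131 minus for ZNF32, chr19:9621183-9621482 minus for ZNF561, chr1:247331818-247332117 minus for ZNF496 and chr10:45000673-45000972 plus for ZNF22. Capitals mark the letters, on either strand, of the ETS core CCGGAA, of TACANNTCC, the core of the ZNF143 site, and of the YY1 core AAGATGG; in ZNF561 a YY1 match and an ETS match adjoin.
ZNF341: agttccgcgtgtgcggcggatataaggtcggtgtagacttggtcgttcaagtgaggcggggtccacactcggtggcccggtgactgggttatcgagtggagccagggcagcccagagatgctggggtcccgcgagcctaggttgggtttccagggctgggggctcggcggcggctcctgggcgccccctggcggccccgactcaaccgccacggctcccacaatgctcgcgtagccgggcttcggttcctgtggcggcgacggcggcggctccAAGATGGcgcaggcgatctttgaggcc
ZNF45: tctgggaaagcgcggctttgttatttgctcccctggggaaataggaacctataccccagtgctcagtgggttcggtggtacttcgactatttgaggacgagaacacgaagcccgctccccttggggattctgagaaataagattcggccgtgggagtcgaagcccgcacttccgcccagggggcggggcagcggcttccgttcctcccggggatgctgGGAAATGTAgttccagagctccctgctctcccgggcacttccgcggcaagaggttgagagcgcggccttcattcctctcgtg
ZNF32: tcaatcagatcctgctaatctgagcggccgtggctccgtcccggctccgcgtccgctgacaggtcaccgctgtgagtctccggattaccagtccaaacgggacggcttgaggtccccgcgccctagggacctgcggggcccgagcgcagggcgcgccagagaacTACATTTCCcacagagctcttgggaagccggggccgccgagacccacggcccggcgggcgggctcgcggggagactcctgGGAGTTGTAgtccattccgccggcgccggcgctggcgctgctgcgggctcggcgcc
ZNF561: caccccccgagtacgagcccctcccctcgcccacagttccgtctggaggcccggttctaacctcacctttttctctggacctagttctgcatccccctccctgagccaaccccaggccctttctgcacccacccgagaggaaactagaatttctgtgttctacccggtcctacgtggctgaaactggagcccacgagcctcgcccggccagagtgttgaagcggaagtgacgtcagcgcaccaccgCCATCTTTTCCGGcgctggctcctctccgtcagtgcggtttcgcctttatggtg
ZNF496: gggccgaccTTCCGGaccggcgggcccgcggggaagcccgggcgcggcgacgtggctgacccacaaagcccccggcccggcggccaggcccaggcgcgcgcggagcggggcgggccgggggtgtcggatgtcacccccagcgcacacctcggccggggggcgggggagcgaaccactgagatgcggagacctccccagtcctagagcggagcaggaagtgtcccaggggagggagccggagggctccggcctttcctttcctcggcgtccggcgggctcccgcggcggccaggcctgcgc
ZNF22: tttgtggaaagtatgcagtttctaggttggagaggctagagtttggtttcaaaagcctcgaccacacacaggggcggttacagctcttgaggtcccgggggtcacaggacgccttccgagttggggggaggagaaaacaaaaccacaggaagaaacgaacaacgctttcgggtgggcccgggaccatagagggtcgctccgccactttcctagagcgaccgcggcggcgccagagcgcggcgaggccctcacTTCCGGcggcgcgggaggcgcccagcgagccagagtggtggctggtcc

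The ZNF143 core occurred 2 times in the promoter of ZNF32 and 1 time in that of ZNF45, the ETS core 1 time each in ZNF561, ZNF496 and ZNF22, and the YY1 core 1 time each in ZNF341 and ZNF561. Of the 245 genes, 212 had a promoter in the RefSeq table, and 117 of these (55.2%) held CCGGAA on either strand. The same 6 letters were in 17.6% of the 27305 promoters of all genes and in 34.1% of the 7645 promoters of genes that were also at 5 TPM or more in both DMSO groups. The share was 62% with a KRAB box and 46.2% without. CCAAT, either strand, was in 49.1% of ZNF promoters and 38.2% of those of genes at the same level, and TACANNTCC in 10.4% and 6.21%. The latter core was also in 17.9% of the 218 promoters of ZNF genes that the rule left out. The GC box GGGCGG was in 67.5% against 71.2%, AAGATGG in 8.02% against 9.13%, TGACGT (the cAMP response element core) in 31 of the 212 against 12.7%, and TATAAA in 3.3% against 4.83%. The median number of CG dinucleotides was 23 in ZNF promoters and 27 in the others at this level. Such matches are descriptions of letters, not of binding.

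ZNF genes were expressed at low to moderate levels. Their median was 12.9 TPM in Jurkat and 13.9 in CCRF-CEM under DMSO at 6 h, and together they made up 0.464% ± 0.00983 (SD, n = 3) of all TPM in gAAVS1. Over the Jurkat libraries ZNF664 averaged 131.6 TPM, ZNF22 117.5, ZNF146 105.4, ZNF207 (a spindle assembly factor) 89.4 and ZNF32 77.9. Over the other lines the highest were ZNF22 at 177.5, ZNF428 at 164.8, ZNF664 at 128.2, ZNF146 at 108.2 and ZNF598, a ubiquitin ligase that acts on collided ribosomes, at 80.7 TPM.

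Some genes that the rule admitted through Jurkat and CCRF-CEM were nearly silent elsewhere. Under DMSO, 224 of the 245 were at 5 TPM or more in all of CCRF-CEM, KOPT-K1 and TALL-1, while 3 were under 1 TPM in KOPT-K1 and 5 in TALL-1. ZNF711 was listed at 0 in all 6 TALL-1 libraries, while the 3 DMSO libraries read 23.8, 24.2 and 22.4 TPM in CCRF-CEM and 25.1, 23.6 and 26.0 in KOPT-K1. ZNF521, known from haematopoietic progenitors, averaged 15.4 TPM in CCRF-CEM against 0.017 in KOPT-K1 and 0.21 in TALL-1. ZNF595 averaged 21.6, 1.02 and 40.7 TPM in CCRF-CEM, KOPT-K1 and TALL-1. A spread of 1 or more on the log2(TPM + 1) scale between the highest and the lowest of the 3 lines was seen for 36 genes.

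ZNF genes were more often higher than lower in cells labelled gSMARCA4 and gSMARCA4_A2 and after 8 d of BRM014. In cells labelled gARID1A and gARID1A_1B the balance turned with the 35 genes at the end of chromosome 19. Over the other 210 genes more were lower than higher with TPM totals, the only scaling for which that split is given. Other scalings, described below, moved the split of gARID1A_1B over all 245 genes towards higher. Changes are differences of log2(TPM + 1), which understate the fold of low genes, and a gene is called changed at a limma adjusted p under 0.05 over all genes tested. All 245 genes passed the filter of 1 TPM in 3 libraries of each table. In the libraries labelled gSMARCA4_A2, 162 were higher and 20 lower than in gAAVS1, where 62.1% of all 17936 genes tested were called, and the median change was 0.27. After 8 d of BRM014 in Jurkat the counts were 121 higher and 26 lower, with a median of 0.13 and 59.9% of all genes called. The libraries labelled gSMARCA4 had 102 higher and 14 lower, with a median of 0.13 (40.9% called), those labelled gARID1A_1B 50 and 47, with 0.01 (40% called), and those labelled gARID1A 28 and 21, with −0.02 (20.9% called). Without the 35 genes, which lie beyond PPP1R12C and are described below, gARID1A_1B had 29 higher and 44 lower and gARID1A 9 and 20.

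At 6 h of BRM014, 73 genes were higher and 44 lower in Jurkat (47.4% of all genes called, median of the ZNF genes 0.04), 107 and 37 in CCRF-CEM (49.8%, 0.155), 99 and 21 in KOPT-K1 (38.1%, 0.14) and 109 and 38 in TALL-1 (45.9%, 0.15). The Jurkat and CCRF-CEM DMSO libraries at 6 h chose the genes, so nothing is read from those 2 counts. Beside all 10111 genes at 5 TPM or more in both DMSO groups, the share of ZNF genes called higher was larger and the share called lower smaller in each of the 7 comparisons that used no such library. In the gSMARCA4_A2 comparison 36.1% of those 10111 genes were higher and 29% lower with a median of 0.03, in the 8 d comparison 35.2% and 29% with 0.03, in KOPT-K1 25.9% and 16.3% with 0.05, and in TALL-1 29.3% and 22.4% with 0.04. In gARID1A 8.25% of them were higher and 14.9% lower, beside 11.4% and 8.57% of the ZNF genes, and in gARID1A_1B 16.1% and 27.4%, beside 20.4% and 19.2%. With TPM totals and the 35 genes beyond PPP1R12C left out, the higher share in these 2 groups turned below that of all genes at the level. It was 4.29% and 13.8% of the other 210 ZNF genes. At 6 h in Jurkat, where the rule used the controls, 29.9% were higher and 23.9% lower.

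**Figure D1:**
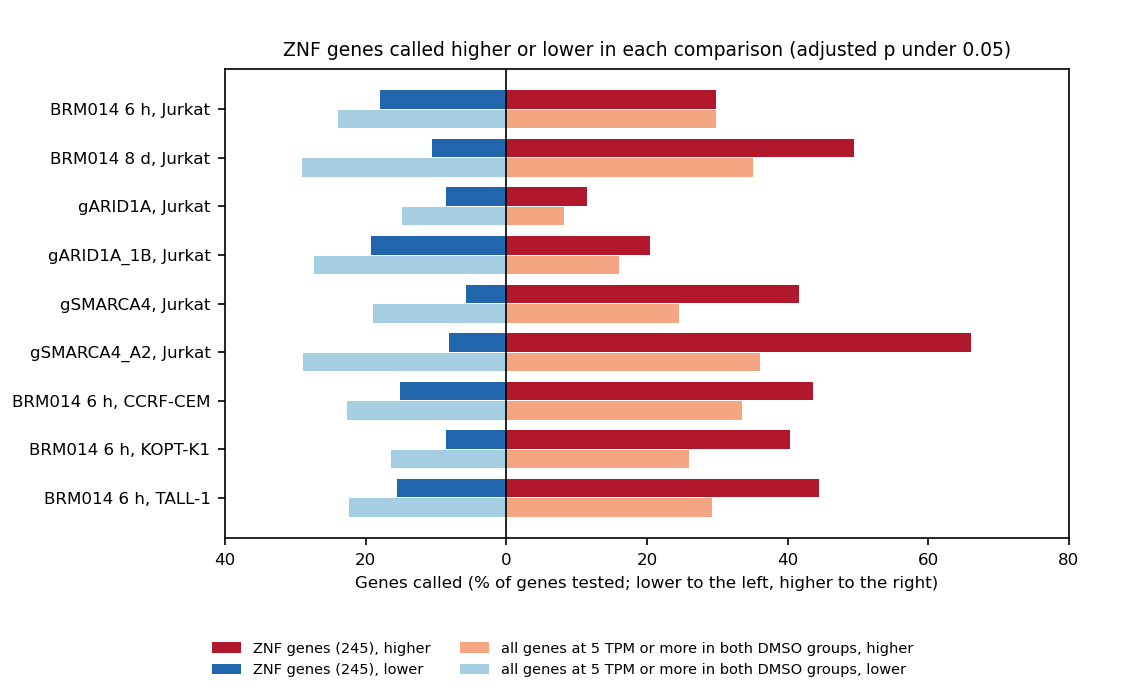
Percent of the 245 ZNF genes and of the 10111 genes at 5 TPM or more in both DMSO groups that were called higher or lower (limma, adjusted p under 0.05) in each of the 9 comparisons. In the gSMARCA4_A2 comparison 162 of the ZNF genes were higher and 20 lower.

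How far the balance leaned upward depended on the scaling. With libraries scaled by median ratios in place of TPM totals, the split became 129 higher and 44 lower for gSMARCA4_A2, 101 and 46 for 8 d of BRM014, 63 and 38 for gARID1A_1B, 81 and 50 in CCRF-CEM and 66 and 30 in KOPT-K1. That scaling moved the median of all genes in the gSMARCA4_A2 comparison from 0.11 to 0.01 and that of the ZNF genes from 0.27 to 0.16. It took the ZNF median to −0.001 in Jurkat at 6 h and to 0.006 in gARID1A, the other side of 0 from the values above. With the mitochondrial mRNAs left out of the total, gARID1A_1B split into 58 higher and 35 lower.

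The share of all TPM that the 245 genes took up was close to the control in the ARID1A groups and larger in the SMARCA4 groups. It was 0.460% in gARID1A, 0.461% in gARID1A_1B, 0.505% in gSMARCA4 and 0.547% ± 0.0137 in gSMARCA4_A2, against 0.464% in gAAVS1. BRM014 libraries held 0.476% against 0.458% at 6 h and 0.510% against 0.462% at 8 d in Jurkat. The values with BRM014 and with DMSO were 0.531% and 0.491% in CCRF-CEM, 0.513% and 0.463% in KOPT-K1, and 0.590% and 0.527% in TALL-1.

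ZNF341, an activator of STAT3 transcription, had the largest rise at 6 h in all 4 lines (chr20:33731996-33792269; ZNF341-AS1 lies on the other strand). It read 5.47, 5.30 and 5.83 TPM in Jurkat DMSO libraries and 17.0, 19.1 and 17.2 after 6 h of BRM014, then 5.18, 4.86 and 4.79 against 10.4, 9.48 and 9.78 at 8 d. In the other lines DMSO and BRM014 libraries read 5.60, 6.79 and 5.27 against 31.6, 32.8 and 25.1 in CCRF-CEM, 2.23, 3.62 and 3.51 against 15.6, 16.3 and 15.3 in KOPT-K1, and 3.07, 3.08 and 3.23 against 25.4, 24.9 and 25.3 in TALL-1. In every line each treated library lay above each control, with no overlap. The log2 changes at 6 h were 1.52 ± 0.06 (SE) in Jurkat, 2.16 ± 0.12 in CCRF-CEM, 2.04 ± 0.12 in KOPT-K1 and 2.67 ± 0.12 in TALL-1, and 0.87 ± 0.06 at 8 d. With the guides, gAAVS1 libraries read 5.81, 5.78 and 5.72 TPM, gARID1A 6.58, 7.61 and 7.81, gARID1A_1B 7.96, 7.63 and 7.48, gSMARCA4 9.35, 9.68 and 9.47, and gSMARCA4_A2 10.1, 11.2 and 9.96. All guide libraries were above all controls, by 0.30, 0.36, 0.63 and 0.75 on the log2 scale in that order.

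ZNF45, a KRAB zinc finger gene at chr19:43912624-43935282, climbed with the guides. It read 6.87, 6.89 and 6.97 TPM in gAAVS1, 9.67, 10.4 and 9.85 in gARID1A, 11.1, 11.4 and 11.4 in gARID1A_1B, 13.0, 13.5 and 13.1 in gSMARCA4 and 15.0, 15.4 and 15.2 in gSMARCA4_A2. No library of a group overlapped with the next group in that order, and the changes against gAAVS1 were 0.47, 0.64, 0.84 and 1.04. BRM014 took it from 8.86, 8.66 and 8.35 to 13.7, 17.3 and 15.2 TPM at 6 h and from 7.07, 6.58 and 7.33 to 15.2, 15.1 and 15.1 at 8 d. In the other lines, where it started at 17.9 to 25.0 TPM, the changes were 0.49 in CCRF-CEM, 0.18 (adjusted p = 0.023) in KOPT-K1 and 0.25 in TALL-1.

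ZNF561, also with a KRAB box (chr19:9607329-9621232), read 9.82, 8.16 and 8.69 TPM under DMSO and 18.9, 18.5 and 18.8 after 6 h of BRM014 in Jurkat, and 7.92, 8.78 and 8.23 in gAAVS1 against 16.9, 17.5 and 17.1 in gSMARCA4_A2. Neither pair of groups overlapped, and the log2 changes were 1.00 ± 0.06 and 0.97 ± 0.06. Its values are uncertain to the extent that reads are shared with ZNF562, whose protein is 84.3% identical, or with ZNF561-AS1 on the other strand. ZNF32, which has no KRAB box (chr10:43643862-43648881, with ZNF32-AS1, -AS2 and -AS3 on the other strand), moved most in the lines with strand-specific libraries. It went from 35.6, 31.8 and 35.0 to 64.1, 65.8 and 66.5 TPM in CCRF-CEM (0.92 ± 0.04) and from 42.9, 40.5 and 40.9 to 76.2, 74.8 and 73.9 in KOPT-K1 (0.84 ± 0.04), without overlap, against 0.34 ± 0.04 in Jurkat at 6 h.

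ZNF496, a SCAN zinc finger gene (chr1:247297415-247331867), fell in every comparison. It read 23.5, 22.2 and 24.0 TPM in gAAVS1 and 13.0, 12.1 and 12.0 in gARID1A, 10.7, 9.93 and 9.73 in gARID1A_1B, 11.4, 10.6 and 11.7 in gSMARCA4 and 11.6, 11.3 and 11.0 in gSMARCA4_A2. All guide libraries were below all controls, with changes of −0.86, −1.13, −0.99 and −0.98 (SE 0.11 each). BRM014 changed it by −0.56 at 6 h and −1.27 at 8 d in Jurkat; the 8 d controls were uneven, at 42.1, 28.0 and 26.1 TPM, all above the 12.6, 12.8 and 11.9 of treated libraries. In CCRF-CEM, KOPT-K1 and TALL-1 it changed by −0.56, −0.64 and −0.71.

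ZNF22, one of the most abundant of these genes (chr10:45000923-45005326, with C10orf25 on the other strand), read 140, 146 and 142 TPM in gAAVS1, 134, 126 and 130 in gARID1A, 97.0, 101 and 98.3 in gARID1A_1B, 104, 110 and 107 in gSMARCA4 and 91.7, 94.5 and 93.3 in gSMARCA4_A2. The changes were −0.14 ± 0.03, −0.52, −0.41 and −0.61. At 6 h of BRM014 it went from 144, 149 and 145 to 86.5, 89.2 and 88.6 TPM in Jurkat (−0.72) and from 229, 260 and 221 to 125, 135 and 133 in CCRF-CEM (−0.85), with no overlap. It changed less in TALL-1, from 179, 186 and 171 to 156, 162 and 144 TPM (−0.21, adjusted p = 0.011).

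**Figure D2:**
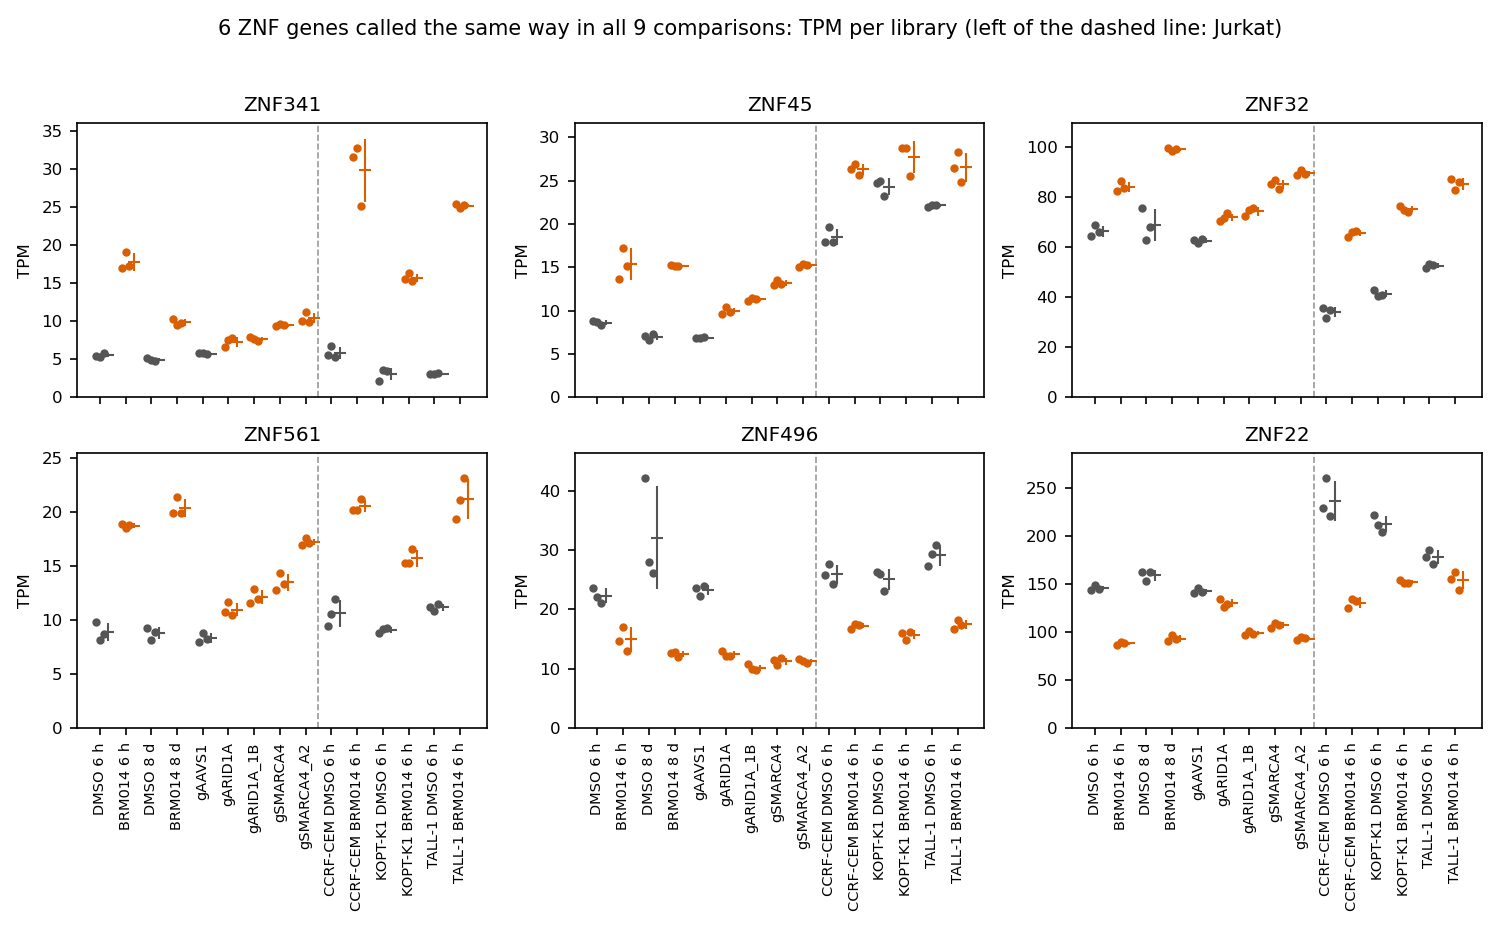
TPM in each of the 45 libraries, by group, for ZNF341, ZNF45, ZNF32, ZNF561, ZNF496 and ZNF22; grey points are control and orange points treated or guide libraries, and bars are the mean ± SD of 3. ZNF496 sits at 9.73 to 13.0 TPM in the guide libraries against 22.2 to 24.0 in gAAVS1.

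Of all 15069 genes tested in both tables, 0.896% were higher and 1.13% lower in all 9 comparisons, against 4 and 2 of the 245 ZNF genes. Of the 9 comparisons, 2 use the DMSO libraries that chose the genes, so nothing is read from these counts. The median ZNF gene was called in 5 of the 9, 131 only ever higher, 32 only ever lower and 78 in both directions. ZNF202, ZNF33A, ZNF526 and ZNF707 were called in none. Shares over all genes are not given beside these numbers, so nothing is read from them. The 4 guide comparisons share the gAAVS1 libraries and are not independent of each other.

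In the 6 h comparison, 45 of the 245 ZNF genes were higher in all 4 lines and 9 lower in all 4, against 10.5% and 6.1% of the 15069 genes. The DMSO libraries of 2 of these lines chose the genes, so nothing is read from that count. Those 45 included ZNF143, which binds many promoters, its paralogue ZNF76, ZNF335, a partner of an H3K4 methyltransferase complex, ZNF217, a cofactor of the CoREST corepressor known as an oncogene in breast cancer, and 22 genes with a KRAB box. ZNF143 read 14.8, 15.3 and 15.9 TPM under DMSO and 28.1, 30.9 and 30.4 with BRM014 in Jurkat at 6 h, without overlap (0.91 ± 0.05), and changed by 0.50 in CCRF-CEM, 0.35 in KOPT-K1 and 0.74 in TALL-1. ZNF76 went from 16.4, 17.8 and 16.7 to 29.5, 29.8 and 26.8 TPM in Jurkat (0.72 ± 0.07) and changed by 0.72, 0.60 and 0.59 in the other lines in that order. ZNF524 changed by 1.02, 0.81, 1.00 and 0.81 and ZNF672 by 0.88, 1.07, 0.71 and 0.72 in Jurkat, CCRF-CEM, KOPT-K1 and TALL-1; ZNF524 overlaps FIZ1 on the other strand.

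The 9 genes lower in all 4 lines were ZNF275, ZNF7, ZNF496, ZNF22, ZNF75A, ZNF326, ZNF324, ZNF621 and ZNF398. Under DMSO, ZNF621 averaged only 0.99 TPM in KOPT-K1, against 6.93 in CCRF-CEM and 6.83 in TALL-1. Its change of −0.30 in KOPT-K1 is thus one of a nearly silent gene. ZNF7, a KRAB zinc finger gene that overlaps COMMD5, stood at 14.4 to 14.7 TPM under DMSO and 7.12, 6.98 and 7.51 with BRM014 in TALL-1, and went from 12.8, 13.5 and 13.0 to 6.08, 6.59 and 7.08 in KOPT-K1. Treated and control libraries were far apart in both, and the changes were −0.92 ± 0.08 and −0.90 ± 0.08, with −0.67 in Jurkat and −0.54 in CCRF-CEM. ZNF275 went from 19.8, 20.5 and 17.7 to 7.35, 7.78 and 8.03 TPM in TALL-1 (−1.22 ± 0.08).

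Over the 245 genes the effect of 6 h of BRM014 in one line followed that in another. Pearson's r was 0.80 between CCRF-CEM and TALL-1, 0.74 between CCRF-CEM and KOPT-K1 and between KOPT-K1 and TALL-1, and 0.70 to 0.79 between Jurkat and each of the others; no libraries are shared between lines, while the genes' lengths, sequences and annotation are. These are descriptions across genes, which are not independent replicates. The lines also differed: with the same limma fit, 32 genes had a higher and 26 a lower effect in TALL-1 than in KOPT-K1 (21.4% of all genes called), 22 and 22 in CCRF-CEM than in KOPT-K1 (18.3%), and 17 and 15 in TALL-1 than in CCRF-CEM (20.4%). The CCRF-CEM effect is measured against DMSO libraries that chose the genes, so nothing is read from the balance of the counts that use it. With same-numbered libraries as a block, the counts became 31 and 36 for CCRF-CEM against KOPT-K1 and 33 and 30 for TALL-1 against CCRF-CEM. The CCRF-CEM against KOPT-K1 count of 44 was 29 without KOPT-K1 DMSO replicate 3, and 29 without KOPT-K1 BRM014 replicate 1.

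ZNF280C and ZNF395 differed most between lines. ZNF280C read 7.58, 7.66 and 7.07 TPM under DMSO and 20.0, 20.9 and 20.9 with BRM014 in TALL-1, far apart, and 5.69, 5.74 and 5.60 against 7.13, 6.21 and 6.62 in CCRF-CEM. Its effect was 1.36 ± 0.06 in TALL-1 and 0.20 ± 0.06 in CCRF-CEM, a difference of 1.16 (adjusted p = 2.2e-07). ZNF395 fell in CCRF-CEM from 9.47, 8.15 and 10.9 to 3.07, 2.90 and 3.68 TPM (−1.31 ± 0.12), while KOPT-K1 libraries read 25.9, 28.8 and 28.9 and then 26.6, 25.4 and 30.6, which overlap (−0.02 ± 0.12). The difference between those effects was −1.29 (adjusted p = 0.00011). These differences use the CCRF-CEM DMSO libraries, which chose the genes, so their adjusted p-values are given as a description. Between TALL-1 and KOPT-K1, whose libraries did not choose the genes, the limma differences were 0.88 for ZNF280C (adjusted p = 3.7e-06) and −0.82 for ZNF395 (adjusted p = 0.0029). In 4 genes the change was in opposite directions in TALL-1 and KOPT-K1, each past the threshold: ZNF430 was lower in KOPT-K1 and higher in TALL-1, and ZNF330, ZNF473 and ZNF740 the reverse. How many of all genes did so is not given, so nothing is read from that number.

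**Figure D3:**
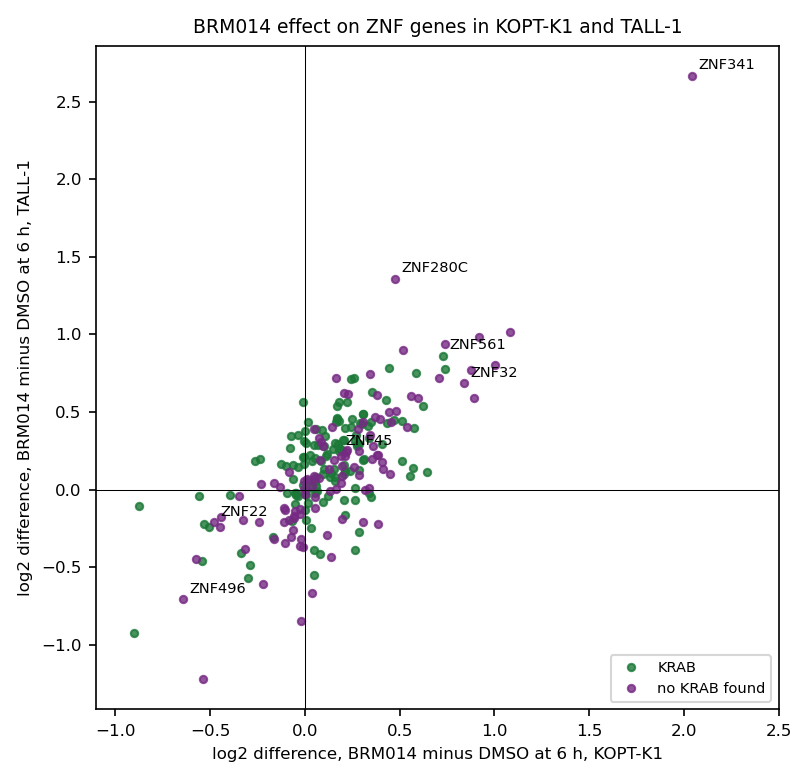
Change with 6 h of BRM014 in KOPT-K1 (x) and TALL-1 (y) for the 245 ZNF genes, as differences of log2(TPM + 1). ZNF341 stands at the upper right with 2.04 and 2.67.

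In Jurkat the effect of BRM014 at 8 d differed from that at 6 h for 104 of the 245 genes (44.2% of all genes called). Its signed value was higher at 8 d in 75 and lower in 29. The 6 h effect is measured against DMSO libraries that chose the genes, so nothing is read from the balance of these counts. ZNF143 was among those with a smaller effect at 8 d: at 8 d it read 13.9 to 15.8 TPM under DMSO and 17.1, 18.6 and 17.0 with BRM014, still without overlap but only 0.23 apart, −0.68 against the effect at 6 h. ZNF513, which overlaps SNX17 on the other strand, was called at 8 d and not at 6 h. It read 11.3, 13.4 and 12.8 against 11.7, 13.6 and 12.0 TPM at 6 h, which overlap, and 11.7, 11.9 and 9.91 against 23.9, 22.1 and 22.3 at 8 d, which do not (0.97 ± 0.07).

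At the 2 times 16 genes were called in opposite directions, 14 of them lower at 6 h and higher at 8 d, a split with the same limit. The share of all genes called in opposite directions is not given, so nothing is read from the number of such genes. ZNF627, which overlaps ACP5 on the other strand, changed by −0.30 and then 0.61, ZNF787 by −0.27 and 0.57, ZNF7 by −0.67 and 0.16, and ZNF593, which acts in assembly of the large ribosomal subunit, by −0.40 and 0.43. ZNF695 and ZNF639 went from higher to lower, ZNF695 by 0.21 and then −0.39. The libraries of each time had their own DMSO controls. Over the 245 genes, the 8 d effects of BRM014 and the changes in gSMARCA4_A2, which share no libraries, had a Pearson's r of 0.81 and the same sign in 84.1%, as a description across genes.

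The guide comparisons rest on gAAVS1, whose guide cuts within PPP1R12C on chromosome 19 (chr19:55090918-55117637), and 35 of the ZNF genes, 25 with a KRAB box, lie between that gene and the end of the chromosome arm. These 35 leaned upward in all 4 guide groups: 19 higher and 1 lower in gARID1A (median 0.22), 21 and 3 in gARID1A_1B (0.24), 24 and 2 in gSMARCA4 (0.28) and 29 and 2 in gSMARCA4_A2 (0.49). In the comparisons that use no guide, the same 35 had 4 higher and 5 lower (−0.01) with 6 h of BRM014 in Jurkat, whose controls chose the genes, and 17 higher and 4 lower (0.21) with 8 d. At 8 d the other 210 genes of the set had 104 higher and 22 lower (0.13). The 40 other genes of that stretch at a mean of 5 TPM or more moved with them in gARID1A, 24 higher and 1 lower (0.24), while the 138 such genes in the 10 Mb before PPP1R12C had 9 higher and 16 lower (0.002). For all genes of the stretch the median was 0.22, 0.21, 0.21 and 0.33 in the 4 guide groups in the order above, and in the 10 Mb before it 0.001, 0.02, 0.03 and 0.15.

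The gAAVS1 libraries were also set against the Jurkat DMSO libraries, which come from another experiment and allow no test, and the size of the difference depended on which DMSO group was used. Over all 75 genes of the stretch the median of gAAVS1 was −0.20 against DMSO at 6 h, the group that chose the ZNF genes, and −0.09 against DMSO at 8 d. In the order gARID1A, gARID1A_1B, gSMARCA4 and gSMARCA4_A2 the guide groups stood at 0.02, 0.02, 0.02 and 0.19 against DMSO at 6 h and at 0.11, 0.10, 0.155 and 0.33 against DMSO at 8 d. Over all 151 genes in the 10 Mb before PPP1R12C, gAAVS1 stood at −0.002 against DMSO at 6 h and 0.12 against DMSO at 8 d. There the guide groups, in the same order, stood at −0.03, 0.01, 0.035 and 0.16, and at 0.12, 0.15, 0.17 and 0.30. Over the 35 ZNF genes the median was −0.14 in gAAVS1, 0.05 in gARID1A, 0.10 in gARID1A_1B, 0.13 in gSMARCA4 and 0.38 in gSMARCA4_A2 against DMSO at 6 h, and −0.11, 0.10, 0.13, 0.18 and 0.42 against DMSO at 8 d. For the other 40 genes all 5 groups were below DMSO at 6 h, with −0.25 in gAAVS1 and −0.01, −0.10, −0.07 and −0.16 in the guide groups, while against DMSO at 8 d gAAVS1 was at −0.08 and the guide groups at 0.15, 0.07, 0.15 and 0.24. PPP1R12C itself read 33.8, 34.3 and 35.1 TPM in gAAVS1, 38.9, 37.6 and 40.0 in DMSO at 6 h, 38.4, 37.2 and 34.1 in DMSO at 8 d and 36.1, 34.8 and 33.2 in gARID1A_1B, and the last 2 groups overlap with gAAVS1. It read 36.39, 38.79 and 41.85 TPM in gARID1A, 39.38, 36.92 and 36.6 in gSMARCA4 and 40.05, 41.95 and 38.82 in gSMARCA4_A2, all above the gAAVS1 libraries. From the gAAVS1 comparisons, lower levels in the control and higher levels in all 4 guide groups cannot be told apart, and the cause was not tested. Outside this stretch, the counts with TPM totals over the remaining 210 ZNF genes were 9 higher and 20 lower in gARID1A. In gARID1A_1B they were 29 and 44, in gSMARCA4 78 and 12, and in gSMARCA4_A2 133 and 18. The medians were −0.04, −0.03, 0.11 and 0.23 in that order.

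**Figure D4:**
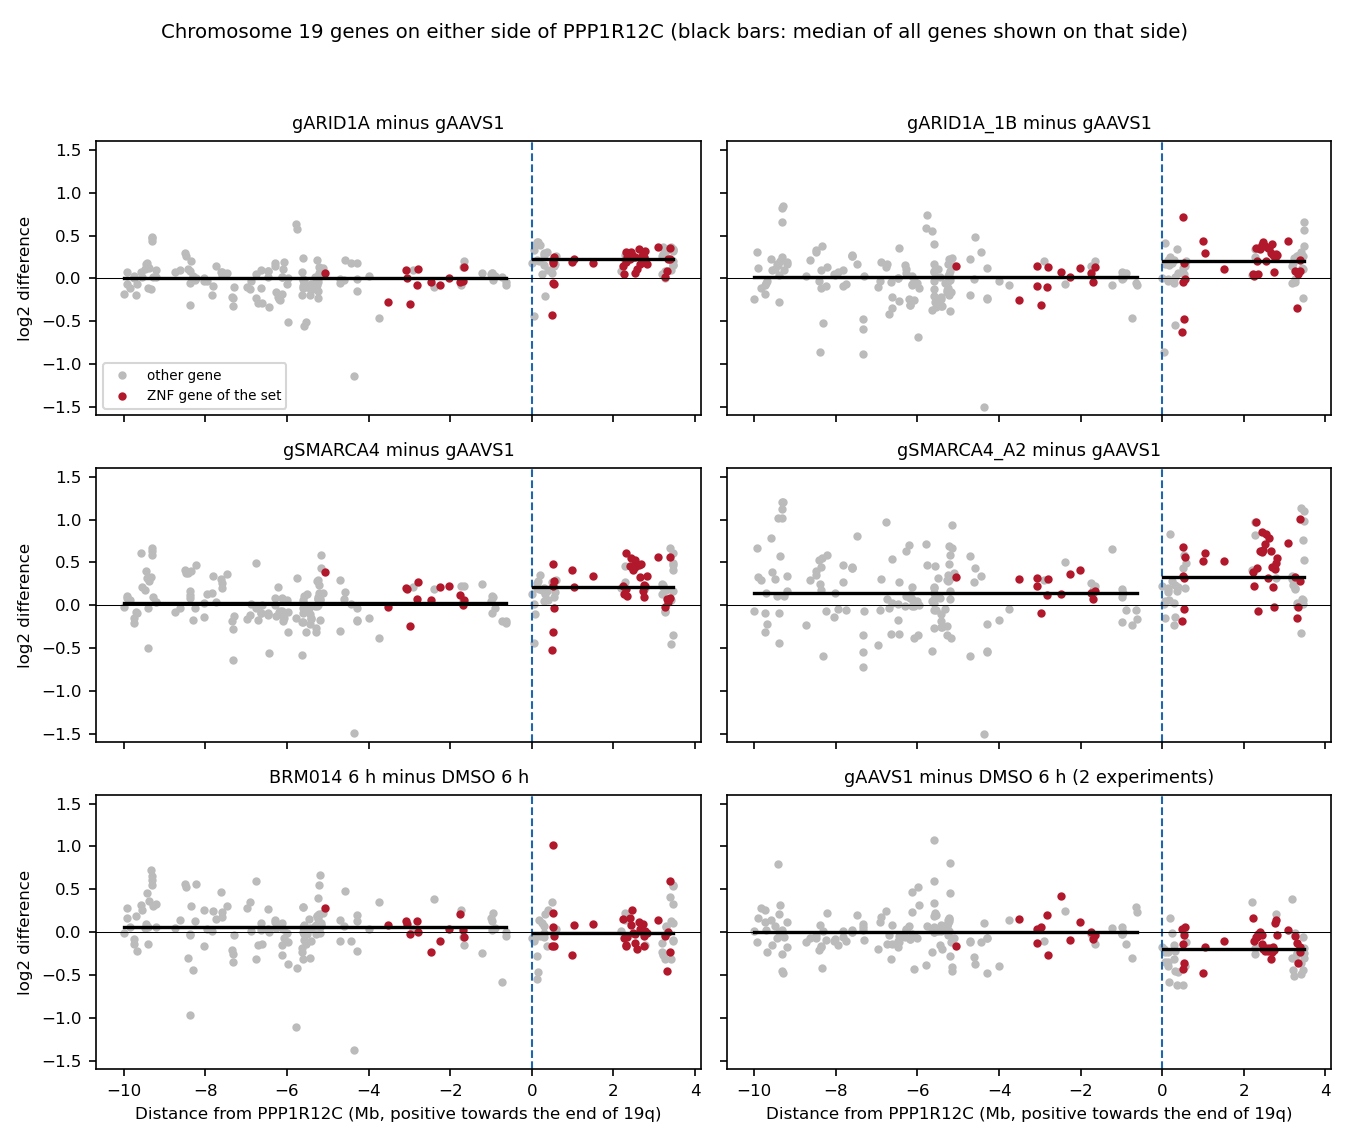
Change of each chromosome 19 gene at a mean of 5 TPM or more, from 10 Mb before PPP1R12C to the end of the arm, against its distance from PPP1R12C in Mb, for the 4 guide groups against gAAVS1, 6 h of BRM014 against DMSO, and gAAVS1 against DMSO at 6 h; black bars are medians of all genes shown on each side, and values past 1.5 in size are drawn at 1.5. The medians beyond PPP1R12C are 0.22, 0.21, 0.21 and 0.33 for the guides, −0.005 for BRM014 and −0.20 for gAAVS1 against DMSO.

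Of the 28 ZNF genes higher in gARID1A, 19 lie past PPP1R12C. ZNF274, a KRAB zinc finger gene whose protein binds the ends of other ZNF genes and recruits TRIM28 and SETDB1 (chr19:58183061-58213562), read 7.64, 8.02 and 8.07 TPM in gAAVS1, 10.2, 10.7 and 10.7 in gARID1A and 13.1, 14.7 and 13.5 in gSMARCA4_A2, and 7.92, 7.49 and 7.77 in DMSO at 6 h. Neither guide group overlapped with gAAVS1 (0.37 and 0.73). ZNF548 in the same stretch (chr19:57389854-57402992) read 7.48, 7.94 and 7.72 TPM in gAAVS1, 9.80, 9.61 and 9.93 in gARID1A and 16.0, 16.9 and 15.5 in gSMARCA4_A2, again without overlap (0.31 and 0.98). ZNF579, the member nearest to PPP1R12C on that side, went the other way, from 7.35, 6.73 and 7.84 to 5.36, 4.71 and 5.53 TPM in gARID1A (−0.42 ± 0.07). The count of 49 called in gARID1A was also sensitive to single libraries, with 27 without gARID1A replicate 2 and 32 without replicate 3.

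Comparisons between guide groups leave out gAAVS1. The libraries labelled gSMARCA4 exceeded those labelled gARID1A in 107 of the 245 genes and were below them in 14 (38.4% of all genes called, median 0.16), and those labelled gSMARCA4_A2 exceeded gARID1A_1B in 171 and were below in 10 (57.1%, 0.26). All genes at 5 TPM or more in both DMSO groups leaned upward too. Of these, 27.9% were higher and 14.3% lower in the first comparison, and 40.2% and 20.3% in the second. These 2 comparisons were added after the pattern beyond PPP1R12C had been seen. The splits under median ratio scaling were 75 higher and 25 lower, and 108 and 31, where it moved the median of all genes in the latter from 0.16 to 0.03. With TPM totals, the splits among the 210 genes outside the stretch were 98 and 11, and 146 and 10. Among the 35 within it they were 9 and 3, and 25 and 0.

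The double guide groups were also set against the single ones. The libraries labelled gSMARCA4_A2 exceeded gSMARCA4 in 92 genes and were below in 14 (38.8% of all genes called; 57 and 30 under median ratio scaling), while gARID1A_1B exceeded gARID1A in 22 and was below in 20 (20.9% called; 40 and 13 without mitochondrial mRNAs). Of all genes at 5 TPM or more in both DMSO groups, 22.1% were higher and 18.1% lower in the step from gSMARCA4 to gSMARCA4_A2. From gARID1A to gARID1A_1B the shares were 9.32% and 13.7%. That these 2 steps differ was not tested. ZNF217 read 22.1, 20.2 and 19.1 TPM in gAAVS1, 19.6, 16.9 and 16.3 in gARID1A, 21.4, 20.7 and 20.3 in gARID1A_1B, 32.5, 31.1 and 29.3 in gSMARCA4 and 48.1, 43.7 and 40.0 in gSMARCA4_A2. The SMARCA4 groups stood clear of the other 3, of which gAAVS1 overlapped with both ARID1A groups, and the change in gSMARCA4_A2 was 1.06 ± 0.09. ZNF654 read 16.7, 15.8 and 14.1 TPM in gAAVS1, 17.4, 18.7 and 17.2 in gSMARCA4 and 36.3, 32.4 and 28.8 in gSMARCA4_A2 (1.01 ± 0.08), with the last group apart from the others; it overlaps CGGBP1 on the other strand. ZNF711 was lower in gARID1A_1B, at 14.3 to 14.9 TPM, and higher in gSMARCA4_A2, at 27.2, 27.1 and 24.7, than in gAAVS1, at 20.1, 21.2 and 19.6, with changes of −0.45 and 0.36.

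The share called higher was larger with a KRAB box than without in 6 of the 9 comparisons, the exceptions being 6 h of BRM014 in Jurkat, CCRF-CEM and KOPT-K1. In gSMARCA4, 68 of the 138 with a KRAB box were higher and 4 lower (median 0.16), against 34 and 9 of the 104 without (0.07). In gSMARCA4_A2 the counts were 98 and 8 (0.30) against 63 and 12 (0.22), at 8 d of BRM014 77 and 11 (0.17) against 44 and 14 (0.08), and in TALL-1 67 and 14 (0.19) against 41 and 24 (0.09). At 6 h in KOPT-K1 they were 52 and 12 against 45 and 9. With the stretch beyond PPP1R12C left out, gSMARCA4 had 49 higher and 4 lower of 113 with a KRAB box (0.14) and 29 and 7 of 94 without (0.07), and gSMARCA4_A2 77 and 7 (0.27) against 55 and 11 (0.21). In gARID1A and gARID1A_1B, 19 and 21 of the higher genes lie in that stretch, where 25 of 35 have a KRAB box. The comparison without the stretch is not given for these groups. The difference between the sets was not tested.

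**Figure D5:**
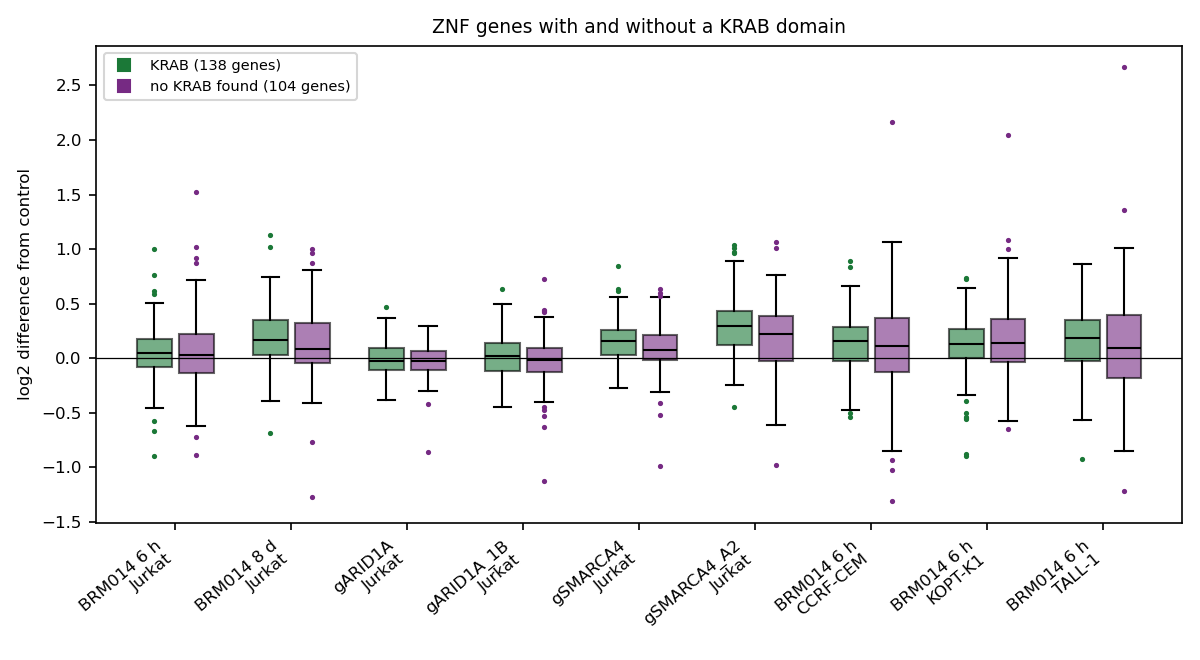
Box plots of the change in each of the 9 comparisons for the 138 ZNF genes with a KRAB box and the 104 without one found. In gSMARCA4 the medians are 0.16 and 0.07.

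Genes whose reads may be shared were also more often higher than lower in gSMARCA4_A2, where 36.1% of all genes at 5 TPM or more in both DMSO groups were higher and 29% lower. Among the 64 that overlap a gene on the other strand 48 were higher and 5 lower, and among the 181 that do not 114 and 15. Of the 32 at least 80% identical to another ZNF protein 20 were higher and 1 lower. By number of fingers, 74 of 102 genes with over 10 were higher and 5 lower (median 0.33), and 38 of 60 with 5 or fewer were higher and 7 lower (0.21).

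The partners through which KRAB boxes act moved in both directions. Of 32 genes of that corepressor machinery, 11 were higher and 9 lower in gSMARCA4_A2 (62.1% of all genes called), 11 and 5 in gSMARCA4, 1 and 7 in gARID1A, 2 and 9 in gARID1A_1B, 9 and 8 at 8 d and 9 and 11 at 6 h of BRM014 in Jurkat, and 9 and 8, 11 and 5, and 8 and 11 in CCRF-CEM, KOPT-K1 and TALL-1. TRIM28 was higher in gARID1A (457 ± 40.2 TPM against 394 ± 18.4 in gAAVS1, SD, n = 3 each; 0.21, adjusted p = 0.0090) and in gSMARCA4 (0.17, adjusted p = 0.020) and called in no other comparison with a control; it lies in the stretch beyond PPP1R12C as well. SETDB1 was higher in gSMARCA4_A2 (30.5 ± 0.906 against 25.5 ± 0.770 TPM; 0.25, adjusted p = 0.00029) and lower in CCRF-CEM with BRM014 (−0.19, adjusted p = 0.0066).

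Zinc finger genes of other families were more often higher than lower in gSMARCA4_A2 too. Of 53 genes of the ZFP, ZBTB, ZSCAN, ZKSCAN, KLF and IKZF families at the same level, 30 were higher and 7 lower (median 0.19), beside the same 36.1% and 29% of all genes at that level.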

How the data were processed

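RNA was sequenced from 27 Jurkat libraries and 18 of the other lines. Per the submitters' processing notes, HISAT2 2.2.1, featureCounts 2.0.3 and DESeq2 1.38.2 were used with hg38. The authors deposited a TPM table for Jurkat and another for the other lines; multiplied by the gene length in the same table, 100% of a library's values were whole multiples (within 0.01) of what 1 read is worth, which gave the read totals. The tables were fitted separately. Each was turned into log2(TPM + 1), genes under 1 TPM in all but 2 libraries were left out, and all groups of a table were fitted together with limma 3.58.1 (R 4.3.3, trend and robust), with Benjamini-Hochberg adjustment over all genes tested; residual degrees of freedom were 18 and 12. KRAB and SCAN domains were searched with pyhmmer 0.12.3 in translated annotation (E-value under 1e-05). Symbols were matched to RefSeq for 244 genes, and 1 by a synonym. Fits were tested on simulated data.

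The ZNF genes, the lists and the tests were chosen with earlier results of these data known. Genes were named by a rule: the 8 (main comparisons) or 4 largest called changes in each direction, those called alike in all 4 lines or in the most comparisons, and the highest levels. ZNF202, ZNF33A, ZNF526, ZNF707, ZNF330, ZNF430, ZNF473, ZNF740 and ZNF639 were named after their values were seen. By deviations from group means, each treated library matched the same-numbered control best for gARID1A_1B and for 6 h of BRM014 in all 4 lines. At 6 h the correlations were 0.12, 0.29 and 0.45 in CCRF-CEM and 0.17, 0.30 and 0.09 in Jurkat. They were 0.03 to 0.17 in KOPT-K1 and TALL-1. The main fit used no pairing. Alternatives were other pseudocounts, filters, scalings, tools and members, a replicate block and leaving out each library.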

Additional observations from a re-analysis of the deposited data

Results flagged for a closer look

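These are the largest differences between 2 effects of BRM014, in each direction, that passed the threshold when the difference itself was tested in the limma fit. Over the 32 differences the adjusted p ran from 6.4e-09 (ZNF7, between times) to 0.029 (ZNF513, between CCRF-CEM and KOPT-K1). The differences between times and those with CCRF-CEM use DMSO libraries that chose the genes, so their adjusted p-values are a description. Only the differences between TALL-1 and KOPT-K1 use no such library. Between 6 h and 8 d of BRM014 in Jurkat, the signed effect on the log2 scale was higher at 8 d for ZNF513 by 0.98 and for ZNF627 by 0.91. For ZNF787 and ZNF7 it was higher by 0.84 and 0.83. The signed effect was lower at 8 d for ZNF496 (−0.71), ZNF143 (−0.68), ZNF341 (−0.65) and ZNF695 (−0.60). ZNF143 and ZNF341 were above DMSO at both 6 h and 8 d, by less at 8 d.

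Between lines at 6 h, the TALL-1 effect exceeded the KOPT-K1 effect for ZNF280C by 0.88, ZNF641 by 0.77, ZNF341 by 0.62 and ZNF440 by 0.57, and was below it for ZNF395 (−0.82), ZNF710 (−0.70), ZNF275 (−0.68) and ZNF783 (−0.65). The CCRF-CEM effect exceeded that in KOPT-K1 for ZNF48 by 0.79, ZNF211 by 0.65, ZNF641 by 0.61 and ZNF513 by 0.49, and was below it for ZNF395 (−1.29), ZNF627 (−0.70), ZNF595 (−0.68) and ZNF692 (−0.65). The TALL-1 effect exceeded that in CCRF-CEM for ZNF280C by 1.16, ZNF22 by 0.64, ZNF84 by 0.60 and ZNF692 by 0.58, and was below it for ZNF275 (−0.73), ZNF367 (−0.55), ZNF446 (−0.53) and ZNF101 (−0.52). ZNF641 had its own fall in KOPT-K1 (−0.88 ± 0.11), and ZNF692 rose by 1.08 in KOPT-K1 and 1.01 in TALL-1 against 0.44 in CCRF-CEM.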

How the results depend on the processing

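Of 5652 recomputed values for 364 named results, 5525 kept their direction and their side of the threshold, 127 lost the threshold and 0 changed sign; 327 results never lost it. Counts of ZNF genes called stayed within 1.5 times in 235 of 272 alternatives that kept all libraries. A change of at least 1 in size left 2, 4, 0, 1, 0 and 4 genes for Jurkat 6 h, 8 d, gARID1A, gARID1A_1B, gSMARCA4 and gSMARCA4_A2, and 4 in CCRF-CEM, 3 in KOPT-K1 and 4 in TALL-1. It left 0 for 8 d minus 6 h, gARID1A_1B minus gARID1A, gSMARCA4_A2 minus gSMARCA4, gSMARCA4 minus gARID1A and TALL-1 minus KOPT-K1, 2 for gSMARCA4_A2 minus gARID1A_1B, and 1 each for CCRF-CEM minus KOPT-K1 and TALL-1 minus CCRF-CEM. A level of 10 TPM kept fewer genes to count and gave, in the order of the first 9, 70, 84, 26, 50, 67, 106, 87, 73 and 86, and 61, 23, 59, 71, 96 and 36 for 8 d minus 6 h, gARID1A_1B minus gARID1A, gSMARCA4_A2 minus gSMARCA4, gSMARCA4 minus gARID1A, gSMARCA4_A2 minus gARID1A_1B and TALL-1 minus KOPT-K1. Without genes that overlap another on the opposite strand, gARID1A had 31 and gSMARCA4_A2 minus gSMARCA4 had 70; without genes beyond PPP1R12C, an alternative chosen after seeing the data, gARID1A had 29. The replicate block moved CCRF-CEM minus KOPT-K1 to 67 and TALL-1 minus CCRF-CEM to 63, and no other count by over 1.5 times.

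With 1 library left out, counts ran from 105 to 109 for Jurkat 6 h, 128 to 150 for 8 d, 27 to 53 for gARID1A, 72 to 81 for gARID1A_1B, 89 to 104 for gSMARCA4, 163 to 174 for gSMARCA4_A2, 130 to 147 for CCRF-CEM, 98 to 107 for KOPT-K1 and 132 to 141 for TALL-1. For differences they ran from 91 to 114 for 8 d minus 6 h, 28 to 35 for gARID1A_1B minus gARID1A, 74 to 98 for gSMARCA4_A2 minus gSMARCA4, 96 to 105 for gSMARCA4 minus gARID1A, 156 to 179 for gSMARCA4_A2 minus gARID1A_1B, 40 to 49 for TALL-1 minus KOPT-K1, 29 to 42 for CCRF-CEM minus KOPT-K1 and 25 to 39 for TALL-1 minus CCRF-CEM. Counts with all libraries lay above the whole range for Jurkat 6 h, gARID1A_1B, gSMARCA4, gSMARCA4_A2, KOPT-K1 and TALL-1. The same held for every difference except 8 d minus 6 h and TALL-1 minus CCRF-CEM. The cause of these moves was not tested. Depth sets the precision of the least expressed genes, which at 5 TPM rest on few reads per base, and 3 libraries a group limit all tests.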
